A study of Mus musculus with 8 samples.

Results

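The mitochondrial respiratory chain was followed at the RNA level as 138 array probes of 89 genes, and 110 probes of 81 genes were bright enough to be compared. The genes were chosen by symbol: those starting with Ndufa, Ndufb, Ndufc, Ndufs or Ndufv (complex I), Sdha to Sdhd (complex II), Uqcr (complex III), Cox4 to Cox8 (complex IV) and Atp5 (complex V), with Chchd10 and Romo1 added by name. In all, the array held 45281 probes, and 14867 probes covering 8655 named genes passed the same brightness rule. That rule asked for a detection p, the chance that a negative control is as bright, under 0.01 on both arrays of at least 1 genotype.

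The chain passes electrons from NADH (complex I) and succinate (complex II) through complex III to complex IV, where oxygen is reduced, and complex V uses the resulting proton gradient to make ATP. Most subunits are encoded in the nucleus and imported, while a smaller set is encoded in mitochondrial DNA. Several complex IV subunits exist as isoforms, one used widely and another mainly in heart and skeletal muscle.

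RNA came from mouse embryonic fibroblasts, primary connective tissue cells grown from male C57BL/6 embryos at embryonic day E15.5 and collected confluent at passage 3. The 8 one-colour Illumina arrays form 4 groups of 2: unmodified cells (WT), cells labelled Gadd45a-/- or Ing1-/-, and cells labelled as a double knockout of both genes (DKO). Gadd45a encodes a small stress-induced protein and Ing1 a chromatin-binding protein of the inhibitor of growth family. The design describes duplicates for each fibroblast line, so genotype and line cannot be told apart. The p-values then reflect array-to-array spread alone, and that spread may be technical.

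Neither deletion could be read from its own gene here. Both Gadd45a probes were higher, not lower, on the arrays labelled Gadd45a-/- than in WT (log2 differences of 1.00 and 1.29) and on those labelled DKO (0.92 and 1.31). The Ing1 probe was not above background on any of the 8 arrays. The sources used here do not say whether these probes lie in the deleted parts, and every direction below rests on the labels. Replicate arrays correlated over probes with Pearson's r from 0.9876 to 0.9937. All 10 fibroblast markers were measured. The log2 of their summed linear intensity was 16.67 on both WT arrays and 16.45 to 16.51 on the arrays labelled Gadd45a-/-. It was 16.57 to 16.6 on the Ing1-/- arrays and 16.38 to 16.45 on the arrays labelled DKO. Such a sum follows its brightest markers, here Thy1, Vim and Col1a1 (WT means 14.93, 14.36 and 14.44). Over the 10 genes, the median difference from WT was -0.31, -0.27 and -0.32 (Gadd45a-/-, Ing1-/- and DKO). In bulk RNA, fewer cells of a type and less RNA per cell cannot be told apart.

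The 3 promoters below belong to the added genes and to a broadly expressed subunit that the results return to. They are the 250 bases before the annotated start, 5′ to 3′ on the gene's strand, from RefSeq on GRCm38.p6. Capitals mark matches to GCGCANGCG, the motif of NRF1, a transcription factor known for binding promoters of respiratory chain genes.
Chchd10, chr10:75932880-75933129, + strand: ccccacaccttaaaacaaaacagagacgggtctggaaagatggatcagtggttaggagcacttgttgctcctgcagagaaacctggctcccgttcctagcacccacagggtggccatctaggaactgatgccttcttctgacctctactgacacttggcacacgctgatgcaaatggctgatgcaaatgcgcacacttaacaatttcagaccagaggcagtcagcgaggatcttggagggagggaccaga
Romo1, chr2:156143983-156144232, + strand: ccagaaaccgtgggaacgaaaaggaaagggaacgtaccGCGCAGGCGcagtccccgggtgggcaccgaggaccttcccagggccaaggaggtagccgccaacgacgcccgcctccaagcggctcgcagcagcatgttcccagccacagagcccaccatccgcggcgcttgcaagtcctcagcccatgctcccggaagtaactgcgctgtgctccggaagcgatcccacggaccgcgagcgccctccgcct
Cox6a1, chr5:115348959-115349208, - strand: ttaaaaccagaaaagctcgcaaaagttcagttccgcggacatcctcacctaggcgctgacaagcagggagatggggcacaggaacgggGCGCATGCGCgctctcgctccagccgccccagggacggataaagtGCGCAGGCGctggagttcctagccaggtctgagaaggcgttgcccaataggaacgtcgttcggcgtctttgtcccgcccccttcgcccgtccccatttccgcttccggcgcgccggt
The Chchd10 stretch holds 0 matches, the Romo1 stretch 1 and the Cox6a1 stretch 3, counted on both strands and allowing overlap. Their GC content is 52.4%, 67.6% and 62.8%. A window of 250 bases before to 50 after the start was at hand for 74 of the 89 genes, and 22 of these (29.7%) held the NRF1 motif, against 1901 of 27025 genes (7.03%). The YY1 motif AAGATGGC stood in 11 (14.9%, against 3.19% of all genes), the GABP motif CCGGAAGT in 5 (6.76%, against 4.31%) and the ERR motif TCAAGGTCA in 2 (2.7%, against 0.466%). The comparison set is all genes with a window, not matched for GC content or expression. The part of GC content in these shares was not tested. A match is a stretch of letters and does not show binding.

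The 5 complexes were close to WT in every genotype. Over the 71 subunit genes with a kept probe, each represented by its brightest kept probe, the median log2 difference from WT was 0.02 for the arrays labelled Gadd45a-/-, 0 for Ing1-/- and 0.02 for the arrays labelled DKO. Over all 8655 genes tested it was 0.01, 0.02 and 0.01. The median size of the difference, regardless of sign, was 0.08, 0.09 and 0.08 in the subunit genes, against 0.13, 0.13 and 0.15 in all genes. These sets are not matched for brightness: 77 of 110 member probes had a mean log2 intensity of at least 10, against 4207 of 14867 probes. Over all probes, the median gap between the WT arrays was 0.11 at or above 10 and 0.21 below it. The part of brightness in the smaller size was not tested.

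With limma and Benjamini-Hochberg adjustment over all 14867 probes, 2 of the 110 member probes passed the 0.05 threshold for Gadd45a-/- minus WT, against 1.33% of all probes tested. One of them was higher (0.928% of all probes were) and the other lower (0.404%). For Ing1-/- minus WT, 1 member probe passed and was higher, against 0.417% of all probes called and 0.202% called higher. For DKO minus WT, 3 passed, 1 higher and 2 lower, against 3.8% of all probes called, 1.85% higher and 1.95% lower. These calls fell on Chchd10, Cox6a2 and 1 of the Romo1 probes. Chchd10 and Romo1 were added by name to a list chosen with earlier results of these data known. The Cox6a2 and Romo1 probes passed the brightness rule only through genotypes where they were brighter. The member counts set beside these shares are therefore a description, not a test. Of the 97 subunit probes, limma called 0, 0 and 1 in the same 3 comparisons. At an unadjusted p under 0.05, limma gave 4, 5 and 6 member probes for Gadd45a-/-, Ing1-/- and DKO minus WT. Of these, 1, 2 and 3 were among the 97 subunit probes. The shares of all probes were 12.4%, 10.7% and 15.7%. The unadjusted counts below for single complexes, assembly factors and marker lists are to be read against these shares.

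Among genotypes other than WT, 1 member passed for DKO minus Ing1-/- (Chchd10, lower), against 1.11% of all probes called and 0.437% called lower. None passed for DKO minus Gadd45a-/- (0.39% of all probes), for Gadd45a-/- minus Ing1-/- (0.659%) or for the interaction, which asks whether the DKO departs from the sum of both single differences (0.148%). At an unadjusted p under 0.05, limma gave 4, 2 and 6 of the 110 member probes in these 3 comparisons, against 10.1%, 8.64% and 9.36% of all probes. They share arrays, and the comparisons with WT all rest on the same 2 WT arrays.

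**Figure D1:**
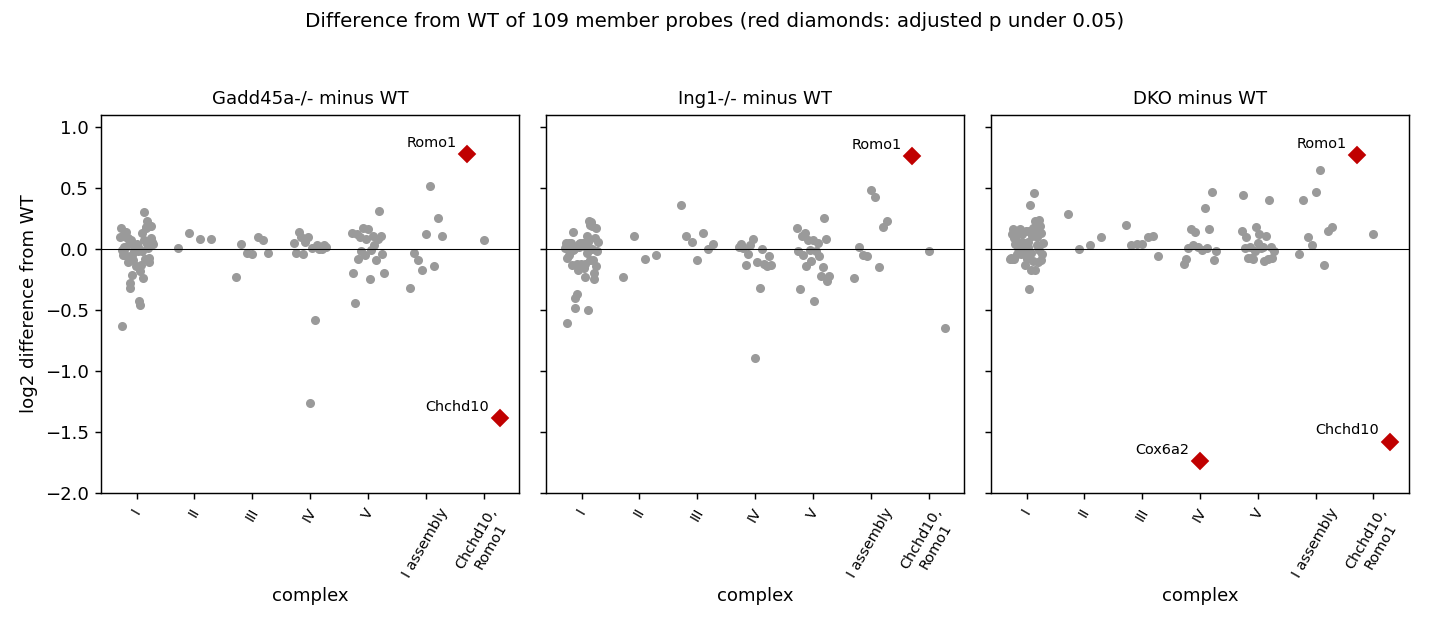
Log2 difference from WT (y axis) of 109 kept member probes, grouped by complex (x axis), in 3 panels for the 3 comparisons with WT; the pseudogene probe is left out. Each point is 1 probe, and red diamonds with names have an adjusted p under 0.05: Romo1 and Chchd10 for Gadd45a-/-, Romo1 for Ing1-/-, and Romo1, Chchd10 and Cox6a2 for the DKO.

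Many intervals were narrow, though they rest on array-to-array spread alone, which may be technical. The 95% confidence interval of the difference lay within 1 log2 unit either side of 0 for 92, 90 and 93 of the 97 kept subunit probes (Gadd45a-/-, Ing1-/- and DKO minus WT), and within 0.5 for 70, 65 and 68. These are 94.8%, 92.8% and 95.9% within 1, and 72.2%, 67% and 70.1% within 0.5. Over all 14867 probes, the shares were 92.8%, 93.3% and 90.6% within 1, and 47.9%, 48.7% and 45.1% within 0.5. The sets are not matched for brightness. A probe that missed the threshold is not thereby shown to be equal between genotypes. The arrays of both groups did not overlap for 23 member probes higher and 8 lower of 110 in Gadd45a-/- against WT, where 21.6% and 17.9% of all probes did so. For Ing1-/- these counts were 17 and 7 (21.8% and 17.3% of all probes), and for the DKO 22 and 7 (23.7% and 22.1%).

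Dim member probes varied more between the arrays of a genotype. For the 33 members with a mean log2 intensity under 10, the median gap between the 2 arrays was 0.33 (WT), 0.27 (Gadd45a-/-), 0.45 (Ing1-/-) and 0.18 (DKO). For the 77 brighter members it was 0.11, 0.1, 0.12 and 0.1. Over all dim probes of the array it was 0.21, 0.19, 0.18 and 0.15.

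**Figure D2:**
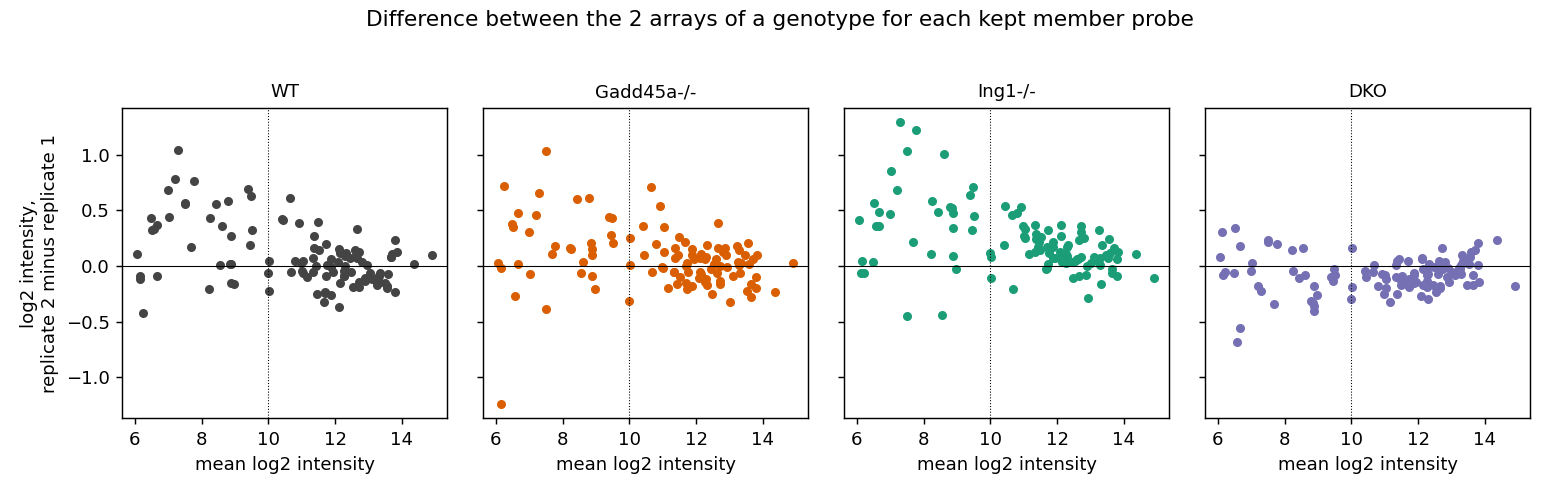
Difference in log2 intensity between replicate 2 and replicate 1 (y axis) against mean log2 intensity (x axis) for each of the 110 kept member probes, in 4 panels by genotype; the dotted line stands at 10. Left of it the points of WT and Ing1-/- lie mostly above 0 (medians 0.32 and 0.45), while those of the DKO lie around -0.08.

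Complex I, which oxidizes NADH, had 50 kept probes of 34 genes and none called by limma, with 0, 1 and 0 probes at an unadjusted p under 0.05 (Gadd45a-/-, Ing1-/- and DKO minus WT). Its median difference from WT was 0.03 for the arrays labelled Gadd45a-/-, 0 for Ing1-/- and 0.02 for the arrays labelled DKO. The 5 measured core subunits, which carry the flavin and iron-sulfur centres or hold them in place, ranged from -0.13 to 0.06, from -0.09 to 0.11 and from -0.17 to 0.02 in the same order. Ndufv1, the flavin-binding subunit, had the lowest of these values in the arrays labelled Gadd45a-/- (-0.13 ± 0.12, SE) and DKO (-0.17 ± 0.12, adjusted p = 0.551 by limma).

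The 29 accessory genes of complex I spread more widely. Ndufa13, an accessory subunit and the brightest of complex I, read 13.61 and 13.69 in WT and 13.54 to 13.82 elsewhere, so its groups overlapped. Ndufb4 had the lowest difference in 2 genotypes, -0.63 ± 0.31 for the arrays labelled Gadd45a-/- and -0.61 ± 0.31 for Ing1-/- (adjusted p = 0.477 and 0.554, limma). Its values were 7.08 and 7.87 in WT, 6.62 and 7.08 in Gadd45a-/-, 6.53 and 7.21 in Ing1-/- and 7.69 and 7.5 in the DKO. The first array was lower than the second in WT, Gadd45a-/- and Ing1-/- but not in the DKO. Ndufb11 had the highest values, 0.3 ± 0.25, 0.23 ± 0.25 and 0.46 ± 0.25 in the 3 comparisons, and its WT arrays read 6.4 and 7.08.

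Complex II, succinate dehydrogenase, was measured by 4 probes of 3 genes, none called and 0 at an unadjusted p under 0.05, with medians of 0.08, -0.05 and 0.1 in the 3 comparisons with WT. Sdhc, a membrane anchor and the brightest of the 3, differed by 0.13 ± 0.12, 0.11 ± 0.12 and 0 ± 0.12. Sdhd, the other anchor, differed by 0.01 ± 0.28, -0.23 ± 0.28 and 0.29 ± 0.28, with WT arrays at 8.49 and 9.06. The iron-sulfur subunit Sdhb differed by at most 0.1 on its brighter probe. The catalytic flavoprotein gene Sdha had no probe above background.

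Complex III, which passes electrons from ubiquinol to cytochrome c, had 7 kept probes of 6 genes, none called and 0 at an unadjusted p under 0.05. Its medians were 0.01, 0.09 and 0.07. The core subunit Uqcrc1 differed by 0.04 ± 0.11, 0.11 ± 0.11 and 0.03 ± 0.11, and Uqcrh, the hinge subunit and the brightest, by -0.04, -0.09 and 0.04. Uqcr10 was highest for Gadd45a-/- at 0.1 ± 0.13. Uqcrq, a small subunit, had the widest spread, from -0.23 ± 0.24 (Gadd45a-/-) to 0.36 ± 0.24 (Ing1-/-, adjusted p = 0.649, limma). Uqcrfs1, the Rieske iron-sulfur protein, had no probe above background.

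Complex V, the ATP synthase, had 21 kept probes of 16 genes, none called (0, 0 and 1 at an unadjusted p under 0.05), and medians of 0.01, -0.02 and 0.01. Atp5b, the catalytic beta subunit and the brightest, read 14.88 and 14.98 in WT, 14.86 and 14.89 in Gadd45a-/-, 14.98 and 14.86 in Ing1-/- and 15 and 14.82 in the DKO. The groups overlapped and the differences were at most 0.05 in size. Over the 5 genes of the catalytic head, differences ran from -0.25 to 0.17, from -0.43 to 0.13 and from -0.08 to 0.18. Atp5a1, the alpha subunit, gave the lowest of the first 2 ranges, -0.25 ± 0.28 and -0.43 ± 0.28, with WT arrays at 10.47 and 11.09, and Atp5d, the delta subunit, gave the highest value for Gadd45a-/- (0.17 ± 0.11).

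In the membrane part of complex V, the 2 measured genes of the c ring, Atp5g2 and Atp5g3, differed from WT by -0.02 to 0.11 in the 3 comparisons. The 4 genes of the peripheral stalk (Atp5h, Atp5j, Atp5o, Atp5pb) lay between -0.22 and 0.11. The small subunits Atp5md (-0.44 ± 0.41 for Gadd45a-/-), Atp5j2 (0.17 ± 0.11 for Ing1-/-), Atp5k (0.44 ± 0.23 for the DKO) and Atp5l (-0.1 ± 0.13 for the DKO) held the extremes there. Their adjusted p-values by limma ran from 0.429 to 0.793.

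**Figure D3:**
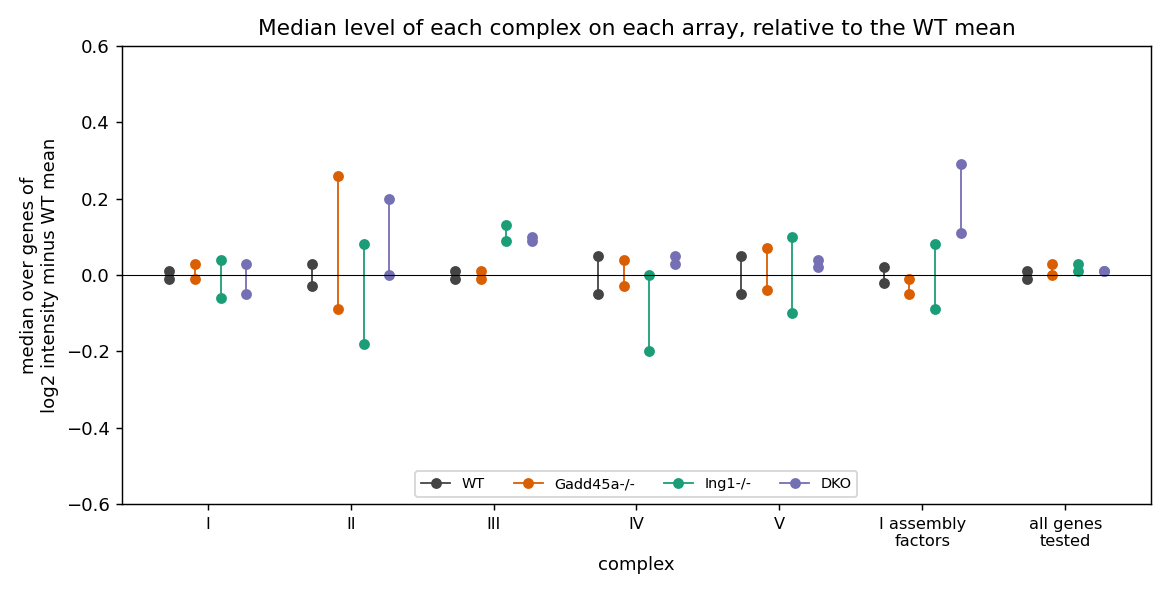
Median over the genes of each complex of log2 intensity minus the WT mean (y axis), for each complex, the complex I assembly factors and all genes tested (x axis); each point is 1 array, coloured by genotype, and lines join the 2 arrays of a genotype. All points of complexes I to V lie between -0.2 and 0.26, and complex II, with 3 genes, has the longest lines.

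Complex IV, cytochrome c oxidase, held the one subunit that passed the threshold. Its 15 kept probes of 12 genes had medians of 0.01, -0.11 and 0.01, with 1, 1 and 2 probes at an unadjusted p under 0.05 by limma. Cox4i1, the widely expressed form of subunit 4 and the brightest, read 13.69 and 13.92 in WT and 13.66 to 13.86 elsewhere. Its partner isoform Cox4i2 was not above background on any array. Cox5b, which had the highest value for Ing1-/- (0.04 ± 0.12), and Cox6b1, which had it for Gadd45a-/- (0.14 ± 0.11), differed from WT by at most 0.14 on their brightest probes.

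Cox6a2, the heart and skeletal muscle form of subunit 6a, had its lowest values on both arrays labelled DKO and 1 of those labelled Gadd45a-/-. Its log2 intensity was 7.17 and 7.05 in WT, 6.47 and 5.23 in Gadd45a-/-, 6.25 and 6.2 in Ing1-/- and 5.21 and 5.52 in the DKO. Both WT arrays were above every other array, and both arrays labelled DKO, with 1 of the arrays labelled Gadd45a-/-, were not above background. The fitted difference for DKO minus WT was -1.74 ± 0.34 (SE, 2 arrays each, adjusted p = 0.0341 by limma). Since the DKO has only a bound, Cox6a2 was at least 2.25-fold lower there on background-corrected values. That bound compares the WT mean with the lowest signal counted as above background. It is not a confidence limit and does not hold for values without background correction.

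The differences of Cox6a2 for the single genotypes were -1.26 ± 0.34 (Gadd45a-/-, adjusted p = 0.171) and -0.89 ± 0.34 (Ing1-/-, adjusted p = 0.402), which missed the threshold by limma. The widely expressed Cox6a1, whose promoter is printed above, read 13.25 and 13.11 in WT, 13.15 and 13.33 in Gadd45a-/-, 13.19 and 13.24 in Ing1-/- and 13.33 and 13.32 in the DKO on one probe. Its 2 probes differed from WT by -0.11 to 0.14 in the 3 comparisons. Cox6a2 passed the brightness rule only through WT and Ing1-/-, where it was brighter, and without that rule the call for DKO minus WT was lost (adjusted p = 0.0961, limma). Without background correction the difference was -0.75 (adjusted p = 0.00444). The call was also lost when either WT array (adjusted p = 0.138 without replicate 1 and 0.0809 without replicate 2), either DKO array (0.203 and 0.133) or either Ing1-/- array (0.0716 and 0.0704) was left out.

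Muscle markers were measured beside Cox6a2. Of 17 markers of skeletal and cardiac muscle, 6 were above background, among them Acta1, Des and Tnnc1, and none passed for DKO minus WT (4 at an unadjusted p under 0.05, limma). Their median difference was 0.47. The log2 of their summed linear intensity was 11.66 to 11.78 in WT and 12.03 to 12.14 on the arrays labelled DKO. Acta1, the brightest of the 6 with a WT mean of 11.5, weighs most in that sum. In Gadd45a-/- and Ing1-/- the sums were 11.78 to 11.85 and 11.67 to 11.78, none of the 6 passed by limma (1 and 0 at an unadjusted p under 0.05), and the median differences from WT were 0.12 and 0.01. Myl1 differed there by -0.74 and -0.41 and Mylpf by -0.34 and -0.36. Myod1, Myog, Myf5, Ckm and Actc1 were not above background by the rule used for members. The part of muscle-like cells in the Cox6a2 values was not tested.

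The other isoforms of complex IV did not pass. Cox6b2, known as the testis form of subunit 6b, read 5.93 and 6.04 in WT, 5.97 and 6 in Gadd45a-/-, 5.64 and 6.05 in Ing1-/- and 6.42 and 6.5 in the DKO. Both DKO arrays were the highest of the 8, with a difference of 0.47 ± 0.15 from WT (adjusted p = 0.162, limma), on a probe above background on 6 arrays. Cox7a1, the heart and muscle form of subunit 7a, differed by 0.05, 0.02 and -0.12, the widely expressed Cox7a2 by 0, -0.12 and 0.16, and Cox7a2l, a factor for joining complexes III and IV, by 0.02, -0.13 and -0.02. Cox8b, the muscle form of subunit 8, and Cox8c were not kept. Ndufa4, counted here with complex I by its symbol though now assigned to complex IV, differed by 0.03, -0.12 and -0.05.

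Chchd10 was the member with the clearest difference. It encodes a protein of the mitochondrial intermembrane space that associates with the cristae-organizing machinery, and mutations in the human gene cause motor neuron disease and myopathy. Its log2 intensity was 10.91 and 10.85 in WT, 9.65 and 9.34 in Gadd45a-/-, 10.17 and 10.29 in Ing1-/- and 9.45 and 9.15 in the DKO. The WT arrays were highest, the Ing1-/- arrays lay between, and the arrays labelled Gadd45a-/- and DKO were lowest and overlapped each other.

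Chchd10 fell by 1.39 ± 0.15 log2 units on the arrays labelled Gadd45a-/- (2.62-fold lower, 95% interval -1.74 to -1.03, adjusted p = 0.00841 by limma). It fell by 1.58 ± 0.15 on the arrays labelled DKO (3.0-fold lower, -1.94 to -1.23, adjusted p = 0.0019). For Ing1-/- the difference was -0.65 ± 0.15 (adjusted p = 0.163), which did not pass. These 3 values share the WT arrays.

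Set against each other, the arrays labelled DKO were lower in Chchd10 than Ing1-/- by 0.93 ± 0.15 log2 units (difference -0.93, 1.9-fold lower, adjusted p = 0.0386, limma). DKO minus Gadd45a-/- was -0.2 ± 0.15 (interval -0.55 to 0.16, adjusted p = 0.717), and Gadd45a-/- minus Ing1-/- was -0.73 ± 0.15 (adjusted p = 0.116). The interaction was 0.46 ± 0.22 (adjusted p = 0.571). The call for Gadd45a-/- minus WT was lost without Gadd45a-/- replicate 2 (-1.23, adjusted p = 0.0662), and the call for DKO minus Ing1-/- was lost whichever of the 8 arrays was left out (-1.08 to -0.78).

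Markers of other cell types also differed between these genotypes. For DKO minus WT, 0 of 5 measured macrophage and blood markers, 3 of 4 epithelial markers, 2 of 4 cartilage and bone markers and 0 of 6 muscle markers were higher by the same test. For Gadd45a-/- minus WT the counts were 5, 2, 2 and 0, and for Ing1-/- minus WT they were 1, 0, 1 and 0. Of all probes, 1.85%, 0.928% and 0.202% were called higher for DKO, Gadd45a-/- and Ing1-/- minus WT. The log2 of the summed linear intensity of the macrophage and blood markers was 8.94 to 9.05 in WT and 10.13 to 10.22 in Gadd45a-/-. It was 9.64 to 9.89 in Ing1-/- and 8.94 on both DKO arrays. For the epithelial markers it was 7.77 to 8.09, 8.69 to 8.77, 8.27 to 8.34 and 9.05 to 9.06 in the same order. Ptprc, Cd68 and Csf1r, and Epcam, Cdh1 and Krt5, were not above background. Of the cartilage and bone list, Col9a1, Col10a1, Comp, Matn1, Runx2, Bglap and Alpl were not measured. Of the neural and glial markers, 1 of 4 was higher for DKO minus WT and 0 of 4 for Gadd45a-/- minus WT, and the brown adipocyte and endothelial lists had 1 measured gene each, both higher for DKO minus WT and neither called for Gadd45a-/- minus WT. For Ing1-/- minus WT, only the endothelial gene was called among these lists. Of the 10 fibroblast markers, 1 was lower for DKO minus WT, 1 for Gadd45a-/- minus WT and 0 for Ing1-/- minus WT. The part of other cell types in the Chchd10 values was not tested.

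**Figure D4:**
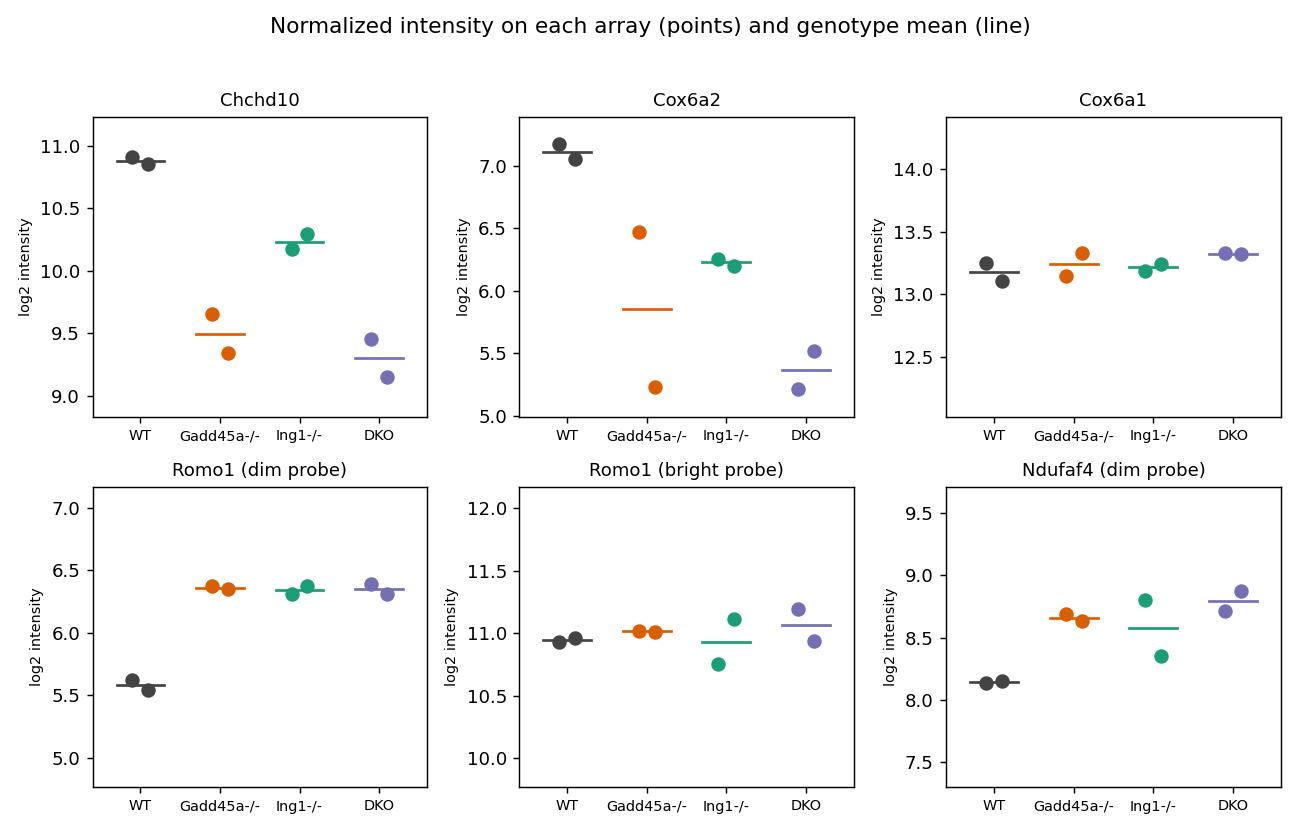
Normalized log2 intensity (y axis, 2.4 units high in each panel but at different levels) of 6 member probes on the 8 arrays by genotype (x axis); points are arrays and lines are the means of 2. Chchd10 and Cox6a2 are highest in WT, the dim Romo1 probe is lowest in WT, and Cox6a1 and the bright Romo1 probe stay level.

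Romo1 encodes a small inner membrane protein known in human cells as a modulator of reactive oxygen species and as a part of the import machinery, and its 2 probes disagreed. The dim probe read 5.62 and 5.54 in WT, 6.37 and 6.35 in Gadd45a-/-, 6.31 and 6.37 in Ing1-/- and 6.39 and 6.31 in the DKO. Both WT arrays were not above background, and the other 6 arrays were above it and within 0.08 of each other. The fitted differences were 0.78 ± 0.11, 0.76 ± 0.11 and 0.77 ± 0.11 (adjusted p = 0.0181, 0.039 and 0.0088, limma). As bounds on background-corrected values, the probe was at least 1.34-fold, 1.32-fold and 1.34-fold higher.

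The bright Romo1 probe read 10.93 and 10.96 in WT, 11.02 and 11.01 in Gadd45a-/-, 10.75 and 11.11 in Ing1-/- and 11.19 and 10.94 in the DKO. It differed from WT by 0.07 ± 0.15, -0.02 ± 0.15 and 0.12 ± 0.15, with intervals that stay within 0.47 of 0. The dim probe passed the brightness rule only through the genotypes where it was higher. Without background correction its differences were 0.29 in all 3 comparisons and none passed (adjusted p from 0.11 to 0.252). The call was also lost without either DKO array for DKO minus WT (adjusted p = 0.0956 and 0.0678, limma), without any array other than those of Ing1-/- for Gadd45a-/- minus WT (0.0557 to 0.117), and whichever of the 8 arrays was left out for Ing1-/- minus WT (0.0891 to 0.193). The sources used here do not say which transcript each probe reads, so Romo1 cannot be called higher from these arrays.

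Assembly factors build complex I without staying in it. Their 9 kept probes of 7 genes had medians of -0.03, 0.02 and 0.15, and none passed, with 1 at an unadjusted p under 0.05 in each comparison. Ndufaf4 came nearest: its dimmer probe read 8.14 and 8.15 in WT, 8.69 and 8.63 in Gadd45a-/-, 8.8 and 8.35 in Ing1-/- and 8.71 and 8.87 in the DKO. Both WT arrays were below every other array, with differences of 0.52 ± 0.16, 0.43 ± 0.16 and 0.65 ± 0.16 (adjusted p = 0.217, 0.374 and 0.0733, limma). Its brighter probe differed by 0.25, 0.18 and 0.15 in the same order.

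The remaining members were accounted for as follows. Of the 138 probes, 28 were not kept, and 8 genes had no kept probe: Cox4i2, Cox7b2, Cox8b, Cox8c, Ndufaf6, Ndufs1, Sdha and Uqcrfs1. Of the 110 kept, 106 passed the rule in all 4 genotypes, and 4 in some only: Romo1 (dim), Ndufv3 (1 of its probes), Cox6a2 and Cox6b2. Just inside the rule, probes of Ndufv3, Cox6b2 and Atp5pb had a detection p of 0.00107, and just outside it, probes of Atp5mpl, Atp5o and Ndufb11 had 0.0246, 0.0395 and 0.0534. The pseudogene Ndufs5-ps, which can share signal with its parent gene, was not called.

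The motif in the promoter was also set against the differences, as a description. The 21 genes with a kept probe whose window held the NRF1 motif had median differences from WT of 0.04, -0.02 and 0.03, and the 49 genes with a window but no match had 0.02, 0 and 0.01. Chchd10 is among the latter. No member lay within 25 Mb of Gadd45a or Ing1, though 4 members (Ndufa4, Ndufa5, Ndufa9, Ndufb2) share a chromosome with Gadd45a and 3 (Cox4i1, Ndufa13, Ndufb7) share one with Ing1.

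In the lists of neighbouring mitochondrial pathways, 0, 0 and 2 genes passed for Gadd45a-/-, Ing1-/- and DKO minus WT. Each gene was read by its brightest kept probe, while the shares given next count probes. Over all probes tested, 1.33%, 0.417% and 3.8% passed for Gadd45a-/-, Ing1-/- and DKO minus WT. The 7 subunits encoded in mitochondrial DNA that were measured had no call and medians of -0.16, -0.05 and 0.18. None passed among 17 genes of electron carriers and coenzyme Q synthesis, 29 assembly factors of complexes II to V, 8 other assembly factors of complex I or 17 regulators of mitochondrial biogenesis, whose medians lay between -0.09 and 0.09. At an unadjusted p under 0.05, limma gave at most 3 genes in any of these lists and comparisons with WT. The shares of all probes were 12.4%, 10.7% and 15.7% for Gadd45a-/-, Ing1-/- and DKO minus WT. Among 17 genes of the TCA cycle and pyruvate dehydrogenase, Pdk4, a kinase that inhibits pyruvate dehydrogenase, rose on the arrays labelled DKO: it read 6.24 and 6.06 in WT, 6.71 and 6.55 in Gadd45a-/-, 6.67 and 6.77 in Ing1-/- and 7.93 and 7.89 in the DKO, a difference of 1.76 ± 0.12 from WT (adjusted p = 0.000763, limma). Both DKO arrays were above all others, and without background correction the difference was 0.97 (adjusted p = 5.22e-05).

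Among 12 genes of CHCHD proteins and cristae organization, a list that does not count Chchd10, only Chchd4 passed, for DKO minus WT. Chchd4 encodes the receptor that imports and oxidizes proteins of the intermembrane space. It read 8.73 and 8.66 in WT, 8.99 and 9.04 in Gadd45a-/-, 8.96 and 8.94 in Ing1-/- and 9.24 and 9.21 in the DKO, a difference of 0.53 ± 0.11 (adjusted p = 0.0356, limma). Both DKO arrays were the highest of the 8. The call was lost whichever of the 8 arrays was left out, and under median scaling, where the difference was 0.33 (adjusted p = 0.502). It was also lost without the brightness rule (adjusted p = 0.0884), with the replicate number as a block (0.0522) and with only the genotypes compared in the fit (0.109).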

How the data were processed

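Biotinylated cRNA from 8 fibroblast samples was hybridised to 1-colour Illumina mouse arrays, per the labels' protocols. The authors deposited a non-normalized table of linear intensity with a detection p-value per probe, per the file headers. The submitters' processing notes name GenomeStudio 2011.1 without its role. A second deposited table, of processed linear intensity, keeps each array's rank order (rho 1) and has 34.5% of values below 0; its method is unknown, and it served as an alternative.

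Background correction and normalization used limma 3.58.1 under R 4.3.3 (neqc: negative controls inferred from detection p, offset 16, quantile, log2). Quantile normalization removes any shift shared by all genes, and the offset understates changes of dim probes. Symbols came from the platform annotation (34885 probes with 1, 18 with several, 10378 with none), and all 138 member probes matched the RefSeq gene table. All 8 arrays entered 1 linear model of genotype means (4 residual and 3.79 prior degrees of freedom) with eBayes, and p-values were adjusted over 14867 probes per contrast. The method was run on simulated data with independent normal errors. That setting lacks the correlation of replicate differences between genotypes given below, so it does not vouch for single calls. Precision is limited by the number of arrays.

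The members, the pathway lists and the marker lists were chosen with earlier results of these data known. Genes were named by rule: every member past the threshold, the brightest and most changed gene of each complex, tissue isoforms, Chchd10, Romo1 and called pathway genes. Splits by role and the values of Ndufaf4, Sdhb and the replicate gaps were added after the values were seen. No slide or scan batch was found in the tables used.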

Additional observations from a re-analysis of the deposited data

How the results depend on the processing

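Calls among the members depended on the processing, while the complex medians stayed small. Of 285 recomputed complex medians, 247 moved by less than 1 SD between replicates and 38 by more. The 247 include settings that leave the log2 differences unchanged: the replicate block, trended robust eBayes, array weights and only the genotypes compared. Leaving out an array of a genotype outside the comparison also hardly moves a median, so the 247 do not measure robustness. Over all settings the medians lay between -0.28 and 0.26. Scaling by the array median in place of quantile normalization shifted the median of all genes by -0.09, -0.18 and -0.16 (Gadd45a-/-, Ing1-/- and DKO minus WT). The subunit genes then had -0.05, -0.17 and -0.12, which is 0.04, 0.01 and 0.04 above all genes. Under it complexes I, III and IV read -0.04, -0.06 and -0.07 for Gadd45a-/-, complexes I to V read -0.17, -0.25, -0.09, -0.28 and -0.2 for Ing1-/-, and complexes I, III, IV and V read -0.14, -0.07, -0.13 and -0.12 for the DKO. Complex III read 0.04, 0.11 and 0.04 without the detection filter, and -0.03, 0.06 and 0.04 over all its kept probes.

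Leaving out 1 array gave, for Gadd45a-/- minus WT, -0.01 to 0.06 (complex I), -0.09 to 0.26 (II), -0.01 to 0.03 (III), -0.07 to 0.04 (IV) and -0.06 to 0.07 (V). For Ing1-/- minus WT it gave -0.06 to 0.04, -0.18 to 0.08, 0.05 to 0.13, -0.2 to 0 and -0.1 to 0.1. For DKO minus WT it gave -0.05 to 0.03, 0 to 0.2, 0.06 to 0.1, 0 to 0.05 and -0.06 to 0.07. The counts of members called were then 0 to 2 (Gadd45a-/- minus WT, 0 without Gadd45a-/- replicate 2), 0 in all 8 cases (Ing1-/- minus WT), 1 to 3 (DKO minus WT, 1 without either DKO array) and 0 in all 8 cases (DKO minus Ing1-/-); the pathway lists kept 1 gene for the DKO, Pdk4.

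For Gadd45a-/- minus WT, 1 member passed without background correction, with detection on all 8 arrays or with trended robust eBayes, and 0 with only these 2 genotypes in the fit, where Chchd10 had an adjusted p of 0.0618. For Ing1-/- minus WT, 0 passed with offset 50, median scaling, no filter, detection on all 8 arrays, array weights or only the compared arrays. For DKO minus WT, 1 passed with detection on all 8 arrays, since Romo1 and Cox6a2 are then not tested. For DKO minus Ing1-/-, 0 passed with median scaling, no filter or only the compared arrays. For Gadd45a-/- minus Ing1-/-, 1 passed without background correction and with trended robust eBayes. The pathway lists had 1 gene called for DKO minus WT with median scaling, no filter or only the compared arrays. The last of these alternatives, for the pathway lists, were chosen after seeing the data.

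Chchd10 passed for DKO minus WT under all 18 alternatives (-1.77 to -1.44, adjusted p at most 0.0245). Chchd10 for DKO minus Ing1-/- was lost in 11 of 18, Cox6a2 in 7 of 17, and the dim Romo1 probe in 10, 16 and 6 of 17 (Gadd45a-/-, Ing1-/-, DKO minus WT). Nothing in the labels ties arrays of the same replicate number, so arrays were not paired. Differences between replicates correlated between genotypes with r from -0.0918 to 0.276 over all probes. Over the member probes r was 0.444 to 0.634 among WT, Gadd45a-/- and Ing1-/-, and -0.112 to 0.0275 with the DKO. The unpaired fit leaves this aside. With the replicate number as a block, 0 members passed for Ing1-/- minus WT (Romo1 adjusted p = 0.0651) and 1 pathway gene for DKO minus WT; no other count of calls moved by over 1.5 times. Depth has no count here: signal near background limits Cox6a2, Cox6b2 and the dim Romo1 probe.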

Other observations

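Dim respiratory chain probes tended to be higher on the second array in 3 of the 4 genotypes. Among the 33 member probes with a mean log2 intensity under 10, the median of replicate 2 minus replicate 1 was 0.32 (WT), 0.16 (Gadd45a-/-), 0.45 (Ing1-/-) and -0.08 (DKO). Over the 10660 probes of the same brightness it was 0.01, -0.01, -0.01 and 0. For the 77 brighter members it was -0.01, 0.02, 0.11 and -0.08.

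Probes of 8 members (Atp5md, Ndufb4, Sdhd, Ndufb9, Ndufb5, Atp5a1, Cox7b and Ndufa5) were higher by over 0.4 on the second array of WT, Gadd45a-/- and Ing1-/- alike, which is 7.27% of the members against 0.848% of all probes. This limit was chosen after the values were seen. Cox7b, a small subunit of complex IV, read 6.91 and 7.95 in WT, 6.51 and 7.18 in Gadd45a-/-, 6.46 and 7.76 in Ing1-/- and 7.87 and 7.65 in the DKO. Atp5md, a small membrane subunit of complex V, read 7.42 and 7.99, 6.75 and 7.78, 6.86 and 7.89, and 7.6 and 7.82. In both, the first array of 3 genotypes was low and the DKO arrays were close together.

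Of the 7 measured subunits encoded in mitochondrial DNA, only COX2, of complex IV, was higher by over 0.4 on the second array in all 3 of these genotypes. It read 12.95 and 13.53 in WT, 12.86 and 13.29 in Gadd45a-/-, 12.85 and 13.36 in Ing1-/- and 13.42 and 13.47 in the DKO. ND4L, of complex I, had such a gap in WT (7.43 and 9.04) and Gadd45a-/- (7.25 and 8.61), and ATP6, of complex V, in WT (13.26 and 13.74) and Ing1-/- (12.94 and 13.52). CYTB and ND5 were lower on the second WT array (14.87 and 14.69, and 8.35 and 8.27). Over the 110 member probes, the replicate differences correlated between genotypes with r = 0.444 (WT and Gadd45a-/-), 0.634 (WT and Ing1-/-) and 0.499 (Gadd45a-/- and Ing1-/-), and with r from -0.112 to 0.0275 for the DKO; the points are probes of the same arrays. What the arrays of one number share was not tested.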
